A study of Gallus gallus with 8 samples.

Results

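Transcripts of 7 transcription factor genes of the GATA, SALL and T-box families (GATA2, GATA3, SALL1, SALL4, TBX1, TBX2 and TBX3) were followed in chick (Gallus gallus) head ectoderm on Affymetrix GeneChip Chicken Genome arrays. Every probe set that the platform annotation gives to 1 of these symbols and to no other gene was taken, whatever its values, which gave 9 of the 38439 probe sets tested. SALL1 and SALL4 had 2 probe sets each, and the other 5 genes had 1 each. Freshly dissected otic ectoderm and lateral ectoderm, both labelled stage 10, were measured on 2 arrays each. The lateral pieces came from the same axial level and included future epidermis and some progenitors of the epibranchial placodes. Presumptive trigeminal ectoderm, labelled stage 8, was cultured for 18 h in collagen gels in DMEM/F12 with N2 supplements, without FGF2 on 2 arrays and with 50 ng/ml FGF2 on 2 arrays. Each array carried RNA pooled from many pieces of ectoderm, and nothing names shared embryos between pools, so that every p-value measures only the spread between pools, part of which may be technical.

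GATA proteins are zinc finger factors that bind the DNA motif for which they are named, and GATA3 is needed for normal inner ear development in the mouse. SALL proteins are zinc finger factors that can repress genes by recruiting the NuRD chromatin complex. Mutations of human SALL1 cause a syndrome with malformed ears and hearing loss, and SALL4 has been linked to invagination of the otic placode in chick. T-box proteins share a DNA-binding domain named after the T gene. TBX1 patterns the otic vesicle and pharyngeal region, whereas TBX2 and TBX3 act mainly as repressors.

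Otic markers were higher in the otic pools than in the lateral pools. All 5 otic markers measured (PAX2, GBX2, SOX8, SOHO1 and EYA2) were called higher by the limits given below, where 5.05% of all probe sets were. The paper names these 5 genes as otic-enriched from the same arrays, so their direction is no independent evidence. Their summed intensity was 9301 and 10731 in otic against 426 and 565 in lateral ectoderm, with GBX2 alone at 8360 and 8846 in otic ectoderm. On the trigeminal arrays the same 5 summed to 3725 to 4709, with SOHO1 alone at 1818 to 3410. The 4 trigeminal markers measured (PAX3, EYA2, NEUROG2 and NEUROD1) summed to 143 and 204 without FGF2 and to 595 and 854 with it, but also to 556 and 606 in otic ectoderm. Of these EYA2, also an otic marker, was at 116 to 757 on the trigeminal arrays, PAX3 at 13.7 to 34.4, NEUROG2 at 11.7 to 83.2 and NEUROD1 at 1.80 to 28.0, the last under the array medians throughout. Median intensity over all probe sets was 25.6 to 31.6 on the 8 arrays. Intensities are linear values, used here as log2 with values under 1 set to 1, and differences are log2 differences from limma over all 8 arrays. A probe set was called higher or lower where the fold was above 2 and the unadjusted p was under 0.05, and adjusted p-values were computed by the Benjamini-Hochberg method over all probe sets tested. The number of arrays limits the precision, and an exact permutation test of 2 arrays against 2 cannot give a p below 0.33.

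GATA3 was highest on the otic arrays. Its intensity (probe set Gga.744.1.S1_at) was 538 and 1041 in otic ectoderm, 57.6 and 87.5 in lateral ectoderm, 155 and 110 in trigeminal ectoderm without FGF2 and 89.3 and 136 with FGF2. Both otic arrays stood above all 6 others, and the trigeminal arrays with and without FGF2 overlapped each other. Otic ectoderm was 10.5-fold above lateral ectoderm, a log2 difference of 3.40 (standard error 0.50, 95% interval 2.20 to 4.60, limma adjusted p = 0.20, n = 2 arrays per group). The call held under every alternative that was run, and leaving out single arrays moved the log2 difference between 2.92 and 3.87. It was close to that of the dimmer SALL1 probe set (3.29), and their order turned without otic replicate 2 or lateral replicate 2. Apart from the arrays, the paper detected GATA3 transcripts in the otic ectoderm by in situ hybridization. In its cultured whole embryos an inhibitor of FGF receptors abolished or greatly reduced that signal.

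SALL1 was higher in otic ectoderm in both of its probe sets. The brighter one (Gga.1817.1.S1_at) read 3686 and 4194.5 in otic, 357 and 1037 in lateral, 790 and 722 in trigeminal ectoderm without FGF2 and 1754 and 1746 in trigeminal ectoderm with FGF2. Its otic arrays were the highest, the FGF2 arrays came next without overlap, and the untreated trigeminal and lateral arrays overlapped. The log2 difference of otic minus lateral was 2.69 (standard error 0.54, 95% interval 1.40 to 3.99, limma adjusted p = 0.26, n = 2 per group). The dimmer probe set (Gga.1817.1.S2_at) read 559 and 431 in otic, 27.5 and 92.0 in lateral, 114 and 69.8 without FGF2 and 170 and 122 with FGF2. It followed the same order of groups, and otic ectoderm was 9.75-fold above lateral ectoderm, a log2 difference of 3.29 (standard error 0.64, 95% interval 1.75 to 4.82, limma adjusted p = 0.25, n = 2 per group). The lateral arrays differed among themselves, so that the log2 differences were 1.92 and 2.42 without lateral replicate 1 and 3.46 and 4.16 without lateral replicate 2, called in each case. Across the 8 arrays the log2 values of the pair of probe sets correlated with Pearson's r = 0.964 and Spearman's rho = 0.952, given as a description of 8 arrays of 4 groups.

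SALL4 gave a mixed answer between its probe sets. The probe set GgaAffx.20087.1.S1_s_at read 1409 and 797 in otic, 226 and 328 in lateral, 225 and 268 without FGF2 and 330 and 352 with FGF2. Both otic arrays were above all others, and otic ectoderm was 3.89-fold above lateral ectoderm, a log2 difference of 1.96 (standard error 0.42, 95% interval 0.94 to 2.98, limma adjusted p = 0.30, n = 2 per group). In Affymetrix naming the ending _s_at marks probes that match more than 1 transcript, so that this signal may not come from SALL4 alone. The other probe set (Gga.18661.1.S1_at) read 3190 and 960 in otic and 458 and 1125 in lateral ectoderm, 464 and 299 without FGF2 and 897 and 655 with FGF2. Its otic and lateral arrays overlapped, and the log2 difference of 1.29 (standard error 0.72, 95% interval −0.45 to 3.02, limma adjusted p = 0.71, n = 2 per group) was not called. Without otic replicate 2 the same probe set gave 2.15 and was called, but without otic replicate 1 it gave 0.42. The SALL4 probe sets correlated over the 8 arrays with r = 0.854 and rho = 0.738.

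TBX1 could not be read clearly from its single annotated probe set. GgaAffx.1260.1.S1_at read 101 and 20.0 in otic, 19.1 and 71.1 in lateral, 32.7 and 54.0 without FGF2 and 9.90 and 32.2 with FGF2. Within the otic and the lateral group 1 array lay above and 1 below its array median, and the groups overlapped. The log2 difference of otic minus lateral was 0.29 (standard error 1.04, 95% interval −2.23 to 2.80, limma adjusted p = 0.96, n = 2 per group), which leaves room for a large change in either direction. It was −0.88 without otic replicate 1 and −0.66 without lateral replicate 1.

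A further probe set, Gga.13867.1.S1_at, has no symbol in the platform annotation, but the study's gene list calls it TBX1. It lies outside the rule, is not counted among the 9, and was singled out after its values were known. It read 64.9 and 207 in otic, 6.80 and 26.5 in lateral, 1.5 and 2.3 without FGF2 and 54.0 and 9.10 with FGF2. The otic arrays were the highest and the untreated trigeminal arrays the lowest, both of the latter far under their array medians of 27.6 and 29.0. Otic minus lateral was 3.11 (standard error 1.08, limma adjusted p = 0.53), called except when otic replicate 2 (2.27) or lateral replicate 1 (2.13) was left out, and 4.09 without lateral replicate 2. FGF2 minus no FGF2 was 3.58 (standard error 1.08, limma adjusted p = 0.72), but 0.81 with an offset of 32 and 0.88 with a floor of 16, both no longer called. The call was lost as well without untreated replicate 1 (3.27) or FGF2 replicate 1 (2.29), and the value was 4.86 without FGF2 replicate 2. The 2 probe sets that could report TBX1 thus gave log2 differences of opposite sign for FGF2, −1.24 and 3.58, neither with a limma adjusted p under 0.05.

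GATA2, TBX2 and TBX3 were dim. GATA2 (Gga.745.1.S1_at), which marks early non-neural ectoderm and blood precursors, ranged from 4.00 to 18.6 over the 8 arrays, and TBX2 (Gga.964.1.S1_at) from 5.50 to 27.0, each under the array median on all 8 arrays. Their otic minus lateral log2 differences were 0.66 (95% interval −1.48 to 2.81) for GATA2 and 1.07 (95% interval −0.62 to 2.77) for TBX2, with limma adjusted p-values of 0.88 and 0.75. TBX3 (Gga.963.1.S1_at) read 24.7 and 8.30 in otic, 26.7 and 30.9 in lateral, 6.5 and 4.1 without FGF2 and 4.70 and 14.6 with FGF2. Only its lateral arrays passed their array medians, and both stood above the otic arrays, with an otic minus lateral log2 difference of −1.0 (standard error 0.74, 95% interval −2.78 to 0.78, limma adjusted p = 0.77). A further probe set names both TBX2 and TBX4 and was not counted. It read 7.20 to 22.4 and was under the median on all 8 arrays.

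**Figure D1:**
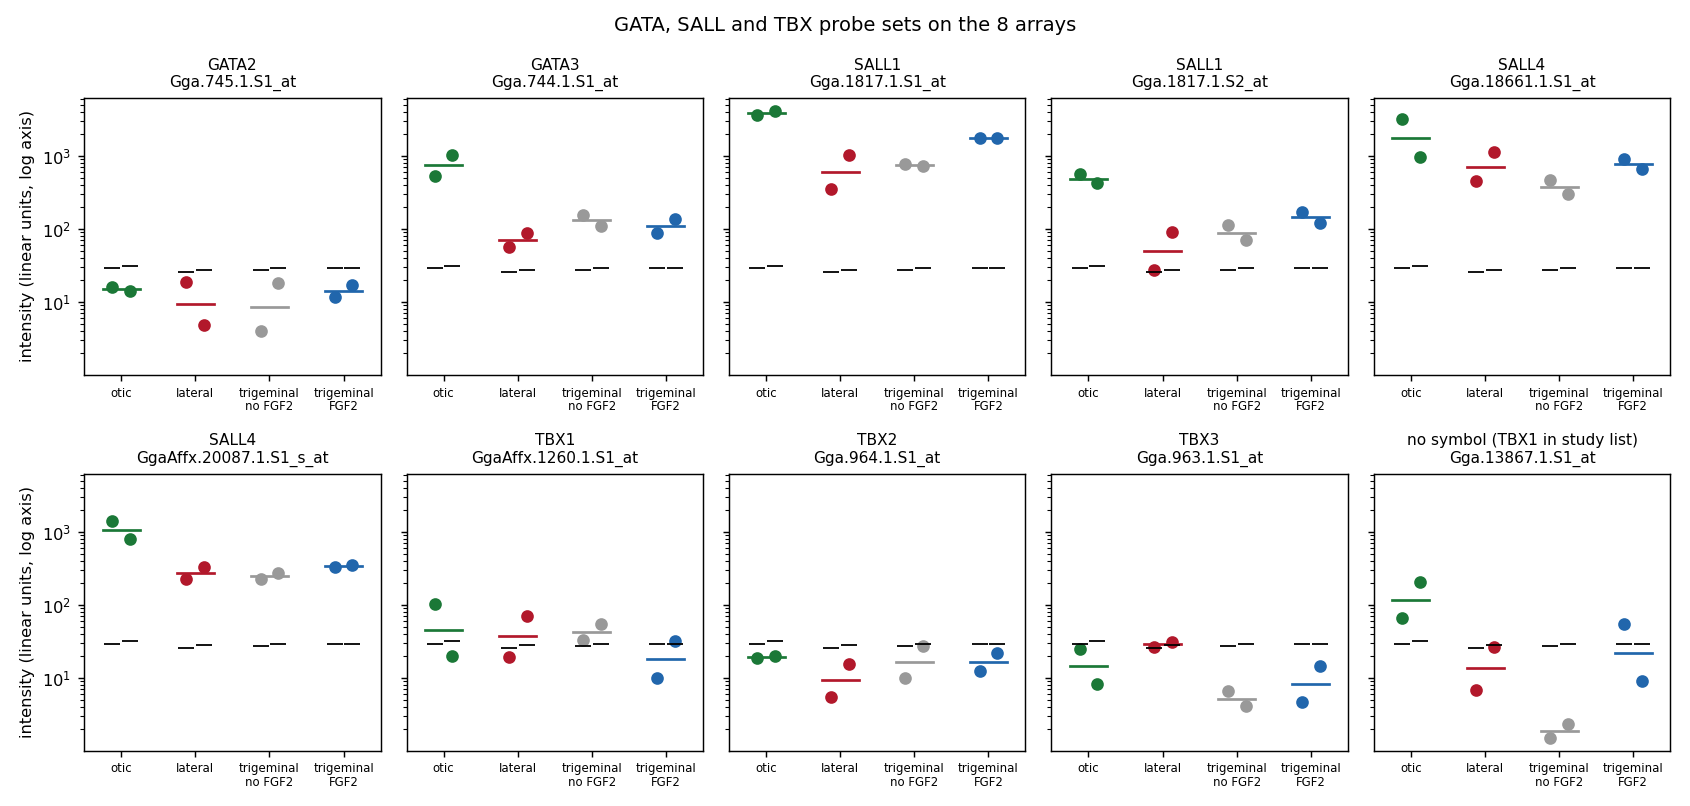
Intensity (linear units on a log axis) of the 9 probe sets of GATA2, GATA3, SALL1, SALL4, TBX1, TBX2 and TBX3 and of Gga.13867.1.S1_at, by group. Points are arrays, coloured bars the geometric means of the 2 arrays of a group, and short black bars the array medians. GATA3, SALL1 and the _s_at probe set of SALL4 have both otic arrays above all others, whereas GATA2 and TBX2 lie under the medians throughout.

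Read together for otic against lateral ectoderm, 4 of the 9 probe sets (those of GATA3 and SALL1, and the _s_at probe set of SALL4) were higher, where 5.05% of all probe sets were called higher. None of the 9 was called lower, against 2.73% of all probe sets. The paper reports GATA3, SALL1 and TBX1 as otic-enriched from the same arrays. The GATA, SALL and T-box genes followed here were also chosen with earlier results of these data known. The counts of the 9 in this comparison are thus no independent evidence. Otic arrays lay above lateral arrays without overlap for 5 of 9 probe sets, the 4 named and TBX2, against 24.7% of all probe sets, and below for 1 of 9, TBX3, against 11.3%. At an adjusted p under 0.05 limma called 0 of the 9 and 0 of all probe sets, with 4 of the 9 and 8.24% of all probe sets at an unadjusted p under 0.05. The median of all probe sets was shifted by 0.19 on the log2 scale, and by 0.01 after quantile normalization, and the values above contain that shift. The share of calls that were higher was 64.9% over all probe sets, and 48.8% after quantile normalization and 48.0% after median centring. The 4 calls held under both scalings, without each array in turn and under every other alternative that kept the 2-fold limit. With eBayes using an intensity trend, GATA3 alone of the 9 reached an adjusted p under 0.05 in this comparison (0.042), while SALL1 gave 0.063 and 0.079 and the _s_at probe set of SALL4 gave 0.085. GATA3 was not the only gene to do so. In the same trend fit FGF8 (0.042), CYP26C1 (0.043) and SOX8 (0.048) also reached it. SOHO1 (0.074), JAG1 (0.13), FGF10 (0.24) and MGA (0.32) did not.

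Signs of RNA quality and markers of other tissues also differed between the otic and lateral pools. The log2 ratio of the 3′ to the 5′ control probe sets was 1.92 and 1.69 in otic against 2.27 and 2.18 in lateral ectoderm for GAPDH, and 1.32 and 1.36 against 1.10 and 1.02 for actin, without overlap. Endothelial and blood markers summed to 2489 and 2891 in otic and to 4979 and 6673 in lateral ectoderm. Of these markers 5 of 13 were called lower in otic ectoderm, where 2.73% of all probe sets were. Epidermal markers summed to 659 and 1178 in otic and to 2240 and 4436 in lateral ectoderm, with 3 of 5 called lower. Head mesoderm markers summed to 2450 and 4206 in otic and to 6623 and 8336 in lateral ectoderm, with FOXC2 called higher (3.43), COL3A1 called lower (−3.65) and 7 of 9 not called. The sums of these 3 lists were thus lower in otic ectoderm, but a sum is set by its brightest genes. The median log2 difference was −1.23 for the endothelial and blood markers and −2.06 for the epidermal markers. For the head mesoderm markers it was 0.89, opposite in direction to their sum. Neural tube markers summed to 308 and 236 in otic and to 146 and 238 in lateral ectoderm, and neural crest markers to 1002 and 2544 against 1966 and 2951, with overlap in both sums. Even so 1 of 7 neural tube markers (HES5, 2.49) and 2 of 6 neural crest markers (SOX10, 2.29, and TFAP2B, 1.23) were called higher in otic ectoderm. So were 2 of 6 heart markers (ISL1, 3.20, and NKX2-5, 1.64) and 1 of 7 endoderm markers, where 5.05% of all probe sets were called higher. The paper names HES5 and ISL1 as otic-enriched from the same arrays, so their calls do not tell which tissue the signal came from. The part of RNA quality or of any of these lists in the differences of the GATA, SALL and T-box genes was not tested, and in pooled tissue fewer cells of a type and less RNA per cell cannot be told apart.

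In cultured trigeminal ectoderm none of the 9 probe sets passed the call with FGF2. The brighter SALL1 probe set had the largest value, with both FGF2 arrays (1754 and 1746) above both untreated arrays (790 and 722), a log2 difference of 1.21 (standard error 0.54, 95% interval −0.08 to 2.51, limma adjusted p = 0.98, n = 2 per group), 2.32-fold. Its other probe set gave 0.69 (standard error 0.64, 95% interval −0.85 to 2.23). SALL4 gave 1.04 (standard error 0.72, 95% interval −0.69 to 2.78) in Gga.18661.1.S1_at and 0.47 (standard error 0.42, 95% interval −0.55 to 1.49) in the _s_at probe set. In all 4 of these probe sets the FGF2 arrays lay above the untreated arrays without overlap. GATA3 gave −0.25 (standard error 0.50, 95% interval −1.45 to 0.95, limma adjusted p = 1), with overlapping arrays, an interval that holds neither a rise nor a fall of 4-fold. TBX1 gave −1.24 (standard error 1.04, 95% interval −3.75 to 1.28) in its annotated probe set, with both FGF2 arrays below both untreated arrays.

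Limma called 0 of the 9 probe sets higher and 0 lower with FGF2, with 0 against 5.26% of all at an unadjusted p under 0.05, where 2.74% of all probe sets were called higher and 2.26% lower. FGF2 arrays lay above untreated arrays without overlap for 4 of 9 probe sets against 23.4% of all probe sets, and below for 1 of 9 against 13.2%. The one count that moved was that of probe sets called higher, which was 1 in place of 0, by the brighter SALL1 probe set, in the fit of the comparison's own arrays, without the dimmest 40% of probe sets, with the trend and with an offset of 32. It was also 1 without lateral replicate 1 or lateral replicate 2, where the log2 difference remained 1.21 and only the estimate of the spread changed. Epidermal markers summed to 1188 and 1140 with FGF2 against 1677 and 906 without it, with overlap. Endothelial and blood markers summed to 629 and 697 against 531 and 446, with 1 of 13 called higher. Neural tube markers summed to 2861 and 2780 with FGF2 and to 3883 and 4788 without it, with 2 of 7 called higher. PAX6 was the largest part of these sums, at 1672 and 1838 with FGF2 and 3588 and 4169 without it. The median log2 difference of the 7 was 1.24, opposite in direction to the sum. The part of these lists in the values was not tested.

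**Figure D2:**
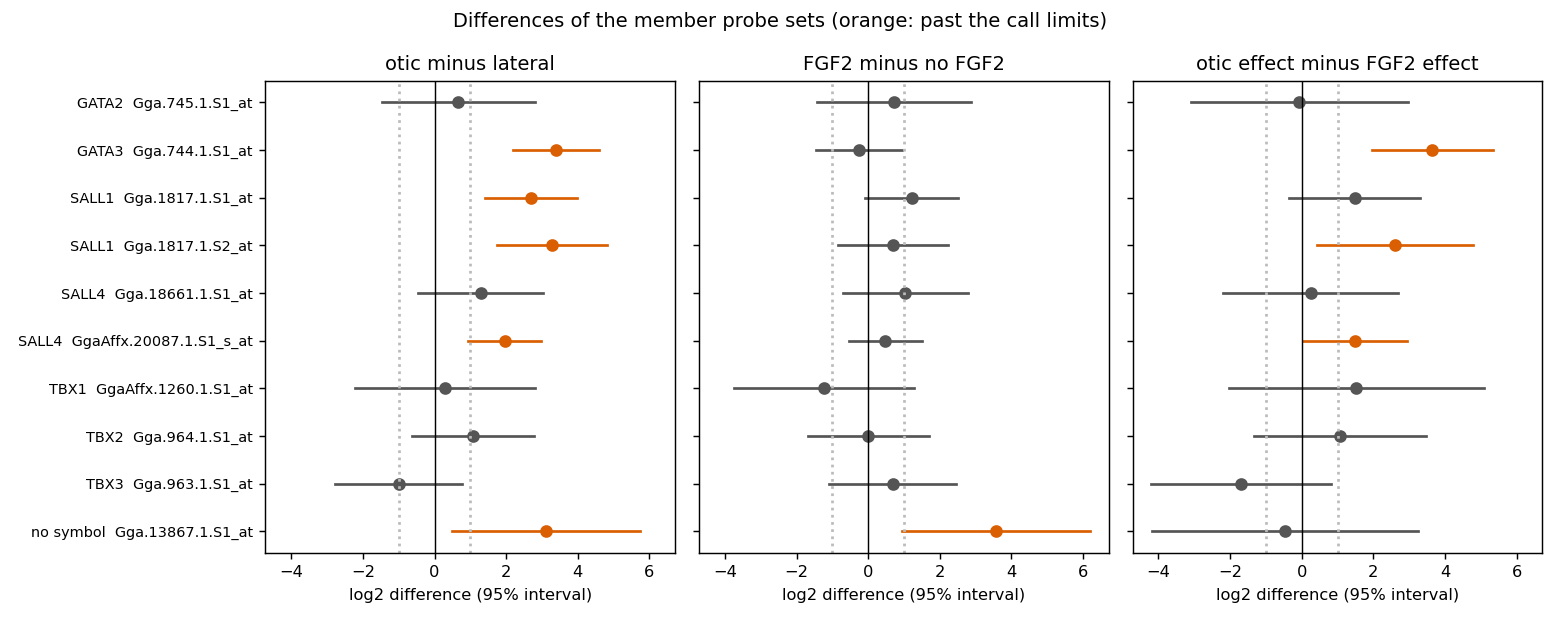
Log2 differences with 95% intervals from limma for the 9 probe sets and Gga.13867.1.S1_at in otic minus lateral, FGF2 minus no FGF2 and the difference of these effects. Orange marks probe sets past the call limits and dotted lines a 2-fold change. GATA3 is called at 3.40 in otic minus lateral and stands at −0.25 for FGF2.

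Whether the otic difference of a gene was larger than its FGF2 difference was tested directly, as otic minus lateral minus the FGF2 effect, since these comparisons share no array. GATA3 had the largest value of the 9, 3.64 (standard error 0.70, 95% interval 1.95 to 5.34, limma adjusted p = 0.46), and this call held under every alternative. The dimmer SALL1 probe set gave 2.59 (standard error 0.90, 95% interval 0.42 to 4.77, limma adjusted p = 0.74) and the _s_at probe set of SALL4 gave 1.49 (standard error 0.60, 95% interval 0.04 to 2.93, limma adjusted p = 0.81). For the brighter SALL1 probe set the value was 1.48 (95% interval −0.35 to 3.31) and for the other SALL4 probe set 0.24 (95% interval −2.21 to 2.70), both not called. A total of 3 of 9 probe sets were called higher, where 3.42% of all probe sets were, and 0 lower, where 2.64% were. The paper lists GATA3 and SALL1 from the same arrays as otic-enriched and not raised by FGF2. These counts are thus no independent evidence. At an adjusted p under 0.05 limma called 0 of the 9, with 3 of 9 and 6.06% of all probe sets at an unadjusted p under 0.05. The calls of SALL1 and SALL4 were near the limits. That of SALL1 was lost without otic replicate 1 (2.41), untreated replicate 1 (2.24) or FGF2 replicate 2 (2.36), with 1.72 and still called without lateral replicate 1 and 3.47 without lateral replicate 2, and that of SALL4 in 6 of the 8 fits with an array left out (1.08 to 1.61), after quantile normalization (1.41) or median centring (1.35) and with the replicate block (1.49). The brighter SALL1 probe set was called without lateral replicate 2 (2.25), with an offset of 32 (1.44) and with the trend (1.48).

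Set against fresh otic ectoderm, FGF2-treated trigeminal ectoderm held less GATA3. The log2 difference was −2.76 (standard error 0.50, 95% interval −3.96 to −1.56, limma adjusted p = 0.17), 6.78-fold lower, and it was called under every alternative. SALL1 was −1.17 (95% interval −2.46 to 0.13) in the brighter and −1.77 (95% interval −3.31 to −0.23) in the dimmer probe set, of which the second was called. The _s_at probe set of SALL4 was called lower at −1.64 (95% interval −2.66 to −0.62), and the other SALL4 probe set gave −1.19 (95% interval −2.92 to 0.54). In this comparison 3 of 9 probe sets were called lower, where 3.89% of all probe sets were, and 0 higher, where 3.60% were. The genes were chosen with earlier results of these arrays known, so these counts are no independent evidence. The FGF2 arrays lay below the otic arrays without overlap for 5 of 9 probe sets against 20.8% of all probe sets, and above for 0 of 9 against 16.8%. Limma called 0 of the 9 at an adjusted p under 0.05, as against 0.0026% of all probe sets, and 3 at an unadjusted p under 0.05, as against 7.86%. The dimmer SALL1 probe set lost its call without either otic or either FGF2 array (−2.00 to −1.53). The brighter one was called without either lateral array, with own arrays only, without the dimmest 40% and with the trend, each at −1.17. It was also called with an offset of 32 (−1.15). The SALL4 probe set Gga.18661.1.S1_at was called without otic replicate 2 (−2.06), but gave −0.32 without otic replicate 1. With the trend the adjusted p of GATA3 was 0.037.

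Untreated trigeminal ectoderm was also set against fresh lateral ectoderm, a comparison that shares its arrays with those above. TBX3 was the one probe set of the 9 called, lower in trigeminal ectoderm by a log2 difference of −2.48 (standard error 0.74, 95% interval −4.26 to −0.70, limma adjusted p = 0.28), where 4.59% of all probe sets were called lower and 5.53% higher. Its trigeminal arrays lay far under their array medians, and the call was lost with an offset of 32 (−0.70) or a floor of 16 (−0.84), without lateral replicate 2 (−2.37) and without untreated replicate 2 (−2.14). GATA3 was at 155 and 110 in untreated trigeminal against 57.6 and 87.5 in lateral ectoderm, without overlap, a log2 difference of 0.88 (standard error 0.50, 95% interval −0.31 to 2.08, limma adjusted p = 0.61) that was not called. No overlap was seen for 1 of 9 probe sets above lateral ectoderm, GATA3, against 21.8% of all, and for 1 of 9 below it, TBX3, against 18.5%. At an adjusted p under 0.05 limma called 0 of the 9 and 0.0442% of all probe sets, with 1 of 9 and 10.7% at an unadjusted p under 0.05. SALL1 gave 0.31 and 0.83, and neither was called, but without lateral replicate 2 they were 1.08 and 1.70 and both were called. Tissue, stage and culture differ at once in the comparisons of fresh with cultured ectoderm and cannot be told apart. Neural crest markers summed to 1002 to 2951 on the fresh and to 4891 to 6810 on the cultured arrays. Neural tube markers summed to 146 to 308 and to 2780 to 4788, with PAX6 the largest part on the cultured arrays. PAX6 alone was at 13.4 to 44.3 on the fresh and 1672 to 4169 on the cultured arrays, and a sum is set by its brightest genes. In untreated trigeminal minus lateral, 3 of 6 crest markers were called higher and 0 lower, and 2 of 7 neural tube markers higher and 1 lower. The part of these lists in the values was not tested.

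The other otic regulators gave a scale for these values. Of 24 listed regulators 18 were measured, of which 11 were higher in otic than in lateral ectoderm and 0 lower, where 5.05% and 2.73% of all probe sets were, with a median log2 difference of 2.43 beside 0.19 over all genes. GATA3 and both SALL1 probe sets lay above that median and the remaining 6 of the 9 probe sets below it. With FGF2, 6 of the 18 were higher and 0 lower, where 2.74% and 2.26% of all probe sets were, with a median of 0.56 beside 0.12 over all genes, and among these GBX2, a homeobox gene of the otic territory, read 149 and 224 without FGF2 and 1446 and 1410 with it. JAG1 (0.92), SOHO1 (−0.73), SOX8 (0.92), SOX2 (0.19) and LMX1B (−0.85), which were called higher in otic ectoderm, were also not called with FGF2. For SOX8 this holds only for the probe set used here. The paper lists another SOX8 probe set as raised by FGF2. Its Q-PCR of cultured presumptive otic ectoderm also found SOX8 significantly raised by FGF2. JAG1, SOHO1, SOX8, SOX2 and LMX1B were all called higher in untreated trigeminal than in lateral ectoderm, where GATA3 and SALL1 were not called. That contrast was not tested. GATA3 lay above lateral ectoderm there without overlap, and the SALL1 probe sets gave 1.08 and 1.70 without lateral replicate 2. SOHO1 read 3410 and 3247 in untreated trigeminal, 107 and 340 in otic and 3.3 and 18.8 in lateral ectoderm. JAG1 read 68.6 and 97.9 in untreated trigeminal and 1.4 and 18.6 in lateral ectoderm. The lateral values of JAG1, SOHO1, SOX8, SOX2 and LMX1B were all under their array medians of 25.6 and 27.9. The otic regulators were listed with earlier results of these arrays known, and several were named by the study from them, so their direction is no independent evidence.

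**Figure D3:**
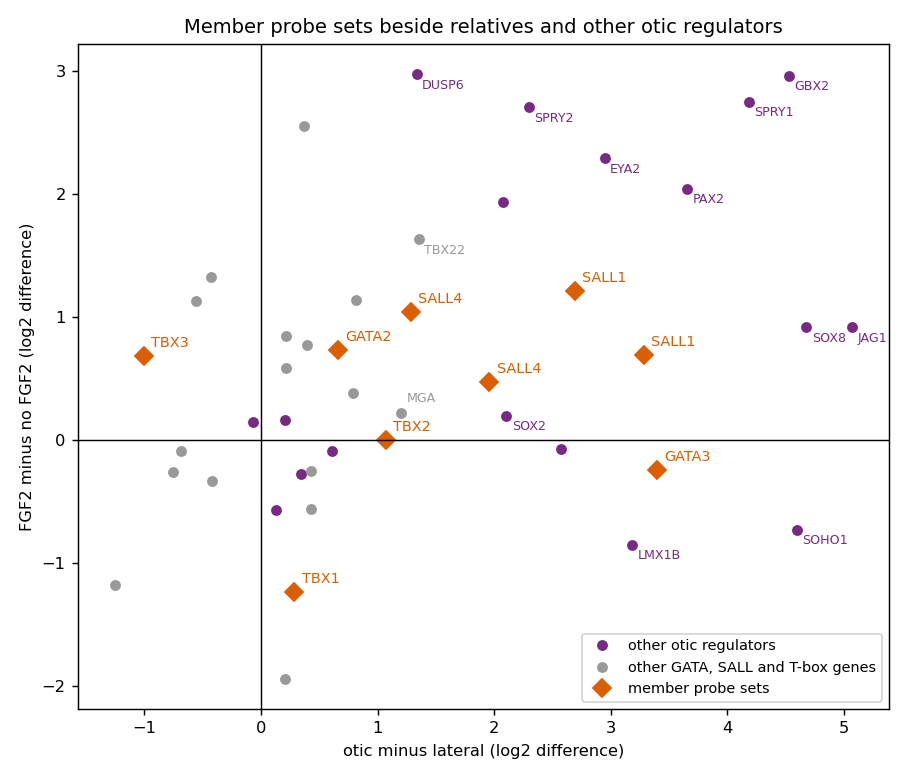
Log2 difference of FGF2 minus no FGF2 (vertical) against otic minus lateral (horizontal) for the 9 probe sets (orange diamonds), other GATA, SALL and T-box genes (grey) and other otic regulators (purple), with names for those called in either comparison and for the 9. GATA3 lies at 3.40 on the horizontal axis and −0.25 on the vertical, and the SALL1 probe sets at 2.69 and 3.29 on the horizontal axis.

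Of 21 other GATA, SALL and T-box genes 17 were measured, and 1 was called higher and 0 lower in otic ectoderm, near the shares over all probe sets (5.05% and 2.73%), with a median log2 difference of 0.22 beside 0.19 over all genes. That gene was MGA, a partner of the MYC network protein MAX, at 448 and 746 in otic and 203 and 312 in lateral ectoderm, a log2 difference of 1.20 (limma adjusted p = 0.56). It was no longer called when otic replicate 2 (0.83) or lateral replicate 1 (0.89) was omitted, or either untreated trigeminal array, with the value unmoved. With own arrays only (1.20) the call was lost as well. SALL3, the one other SALL gene measured, read 76.1 and 116 in otic and 63.6 and 76.4 in lateral ectoderm and gave 0.43, not called. With FGF2 only TBX22 of the 17, a T-box gene of palate development, was called, where 2.74% of all probe sets were called higher, at 13.6 and 53.2 without and 82.1 and 84.5 with FGF2, a log2 difference of 1.63 (limma adjusted p = 0.95). That call was lost in 7 of the 8 fits with an array left out (0.65 to 1.65), and the value was 2.62 without untreated replicate 2. It was also lost with an offset of 32 (0.89), a floor of 16 (1.51) and own arrays only (1.63).

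GATA4, GATA5 and GATA6 are known for roles in heart and endoderm. GATA5 read 1490 and 4285 in otic, 2247 and 2108 in lateral, 507 and 29.5 without FGF2 and 191 and 175 with FGF2. Fresh tissue was high and cultured tissue low, and otic and lateral ectoderm overlapped. Untreated trigeminal minus lateral was −4.15 (limma adjusted p = 0.30) and FGF2-treated trigeminal minus otic −3.79 (limma adjusted p = 0.51). The first was −2.10 without untreated replicate 2 and −6.21 without untreated replicate 1. Its call was lost without lateral replicate 1 (−4.11) or 2 (−4.20). The second lost its call without otic replicate 2 (−3.03), FGF2 replicate 1 (−3.85) or 2 (−3.72), and with a floor of 16 (−3.79). GATA6 read 188 and 499 in otic, 569 and 355 in lateral, 103 and 5.80 without FGF2 and 50.5 and 56.4 with FGF2. Its untreated trigeminal minus lateral difference was −4.20 (limma adjusted p = 0.30). That call was lost without lateral replicate 1 (−3.86) and with own arrays only (−4.20). The difference was −2.13 without untreated replicate 2 and −6.28 without untreated replicate 1. GATA4 stayed within 11.7 and 42.3 and was not called. Heart markers summed to 3845 to 8204 on the fresh and to 780 to 1161 on the cultured arrays, and endoderm markers to 1985 to 6882 and 450 to 1424. TNNT2 was the largest part of the heart sums on the fresh arrays, at 2899 to 7222 there and 209 to 497 on the cultured arrays. In untreated trigeminal minus lateral, 2 of 6 heart markers were called lower and 0 higher, with a median log2 difference of −0.39. Of 7 endoderm markers 3 were called lower and 2 (CXCR4 and SHH) higher, where 4.59% and 5.53% of all probe sets were. TBX5, a T-box gene of heart and forelimb, read 11.4 and 72.2 in otic and 3.0 and 5.8 with FGF2, a log2 difference of −2.78 (limma adjusted p = 0.45) that was not called without otic replicate 2 (−1.45) or FGF2 replicate 1 (−2.31) and was −4.11 without otic replicate 1. The call was lost as well with an offset of 32 (−0.89), a floor of 16 (−1.09) and own arrays only (−2.78). The part of heart or endoderm cells in these values was not tested.

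**Figure D4:**
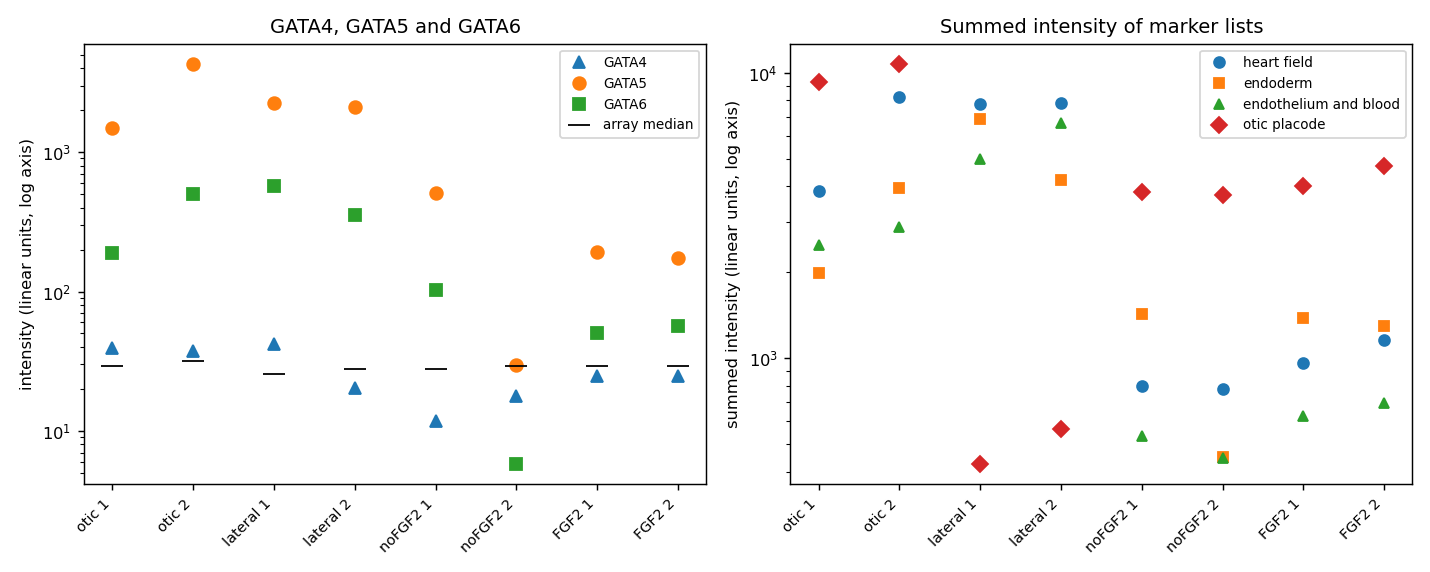
Left, intensity (linear units on a log axis) of GATA4, GATA5 and GATA6 on each array, with black bars at the array medians. Right, summed intensity of the heart field, endoderm, endothelium and blood, and otic marker lists on the same arrays. GATA5 is 1490 to 4285 on the fresh arrays and 29.5 to 507 on the cultured arrays, and the heart markers sum to 3845 to 8204 and 780 to 1161. A sum is set by its brightest genes, and on the fresh arrays TNNT2 is the largest part of the heart sums.

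Partner genes were taken as NuRD subunits, GATA cofactors, and T-box partners and targets. Of 11 listed NuRD subunits 9 were measured, and limma called 0 of them in any of the 5 comparisons, also with 0 at an unadjusted p under 0.05. Their otic minus lateral log2 differences ran from −0.25 to 0.63 and their FGF2 differences from 0.01 to 0.70. Of 9 GATA cofactors, all measured, 0 were called in otic ectoderm and 0 had an unadjusted p under 0.05, with a median of −0.26. With FGF2, TAL1 (1.31) and CITED2 (1.54) were called higher, where 2.74% of all probe sets were. Both calls were lost without FGF2 replicate 1 (1.10 and 1.30). That of TAL1 was also lost without untreated replicate 1 (1.00), and that of CITED2 without untreated replicate 2 (1.12). Both were also lost with an offset of 32 (0.65 and 0.48), and CITED2 with a floor of 16 (0.64). TAL1 is also an endothelial and blood gene, and it read 16.5 and 25.3 without FGF2 and 58.2 and 43.9 with it.

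Of 12 listed T-box partners and reported targets, all measured, 5 were higher and 0 lower in otic ectoderm, where 5.05% and 2.73% of all probe sets were, with a median of 1.17 beside 0.19 over all genes. With FGF2, 5 were higher and 0 lower, where 2.74% and 2.26% were, with a median of 1.40 beside 0.12. This list was drawn up with earlier results of these arrays known. The paper names FGF8, CYP26C1 and CYP26A1 from the same arrays as enriched in otic ectoderm and raised by FGF2. The counts and medians of this list are thus no independent evidence. FGF8, a growth factor whose regulation by Tbx1 was described in the mouse, read 39.1 and 118 in otic, 2.60 and 1.70 in lateral, 30.1 and 33.9 without FGF2 and 164 and 278 with FGF2. Otic minus lateral was 5.01 (limma adjusted p = 0.20) and FGF2 minus no FGF2 2.74 (limma adjusted p = 0.46), with lateral values far under the array medians. Otic minus lateral was 4.22 without otic replicate 2 and 5.81 without otic replicate 1, and 1.60 with an offset of 32. CYP26C1, an enzyme that breaks down retinoic acid, read 422 and 805 in otic, 49.9 and 93.0 in lateral, 237 and 169 without FGF2 and 1236 and 1807 with FGF2. It was called in both, at 3.10 (limma adjusted p = 0.21) and 2.90 (limma adjusted p = 0.36), and neither its calls nor those of FGF8 were lost under any alternative run. By in situ hybridization, however, the paper found FGF8 and CYP26C1 transcripts mostly missing from the otic placode and strong in the ectoderm beside it. The paper counts such genes as likely false positives of the dissection. FGF10, at 18.1 and 29.6 in otic and 2.20 and 2.70 in lateral ectoderm, gave 3.25 (limma adjusted p = 0.22) but 0.69 with an offset of 32 and 0.53 with a floor of 16, both not called. CDKN2B, a cell cycle inhibitor gene repressed by TBX2 in mammals, read 56.2 and 24.5 without FGF2 and 213 and 212 with FGF2, a log2 difference of 2.52 (limma adjusted p = 0.67) that was not called without untreated replicate 2 (1.92).

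The genes most like each of the brightest probe sets over the 8 arrays were listed by Pearson's r among 9543 genes, as a description with no test, since the 8 arrays hold only 4 groups. SALL1 was most like RNLS (0.983), FGF19 (0.981), POC1A (0.973) and ZRANB2 (0.966). FGF19, an otic-inducing growth factor in chick, is listed by the paper as expressed in mesoderm and endoderm, and later in the hindbrain. It read 350 and 360 in otic, 16.2 and 42.2 in lateral, 28.9 and 36.4 without FGF2 and 97.7 and 73.8 with FGF2. It thus had the order of groups seen for SALL1, with the FGF2 arrays between the otic arrays and the rest. GATA3 was most like SLC38A6 (0.948), TTC12 (0.940), KCNK5 (0.936) and CDCA7 (0.935). SALL4, in its probe set that was not called, was most like NELFA (0.971), GAS2L1 (0.970), AAMP (0.967) and TMEM150B (0.964). The 4 nearest to the annotated TBX1 probe set ran from 0.865 to 0.946, with RNF8 first.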

How the data were processed

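RNA of pooled ectoderm, amplified and biotin-labelled, was measured on 8 arrays in 4 groups, grouped by the sample titles. The authors summarised each probe set as 1 linear intensity, used here as deposited. Not given in the sources used here is how probes were summarised and arrays scaled. The 96 control probe sets were removed. Of the 38439 probe sets tested, 27168 have 1 symbol (13009 genes), 177 several and 11094 none. Values under 1 (2.30% to 2.90% of an array) were set to 1. Log2 intensity was modelled in limma 3.58.1 (R 4.3.3; lmFit, eBayes) by group means of the 8 arrays (4 residual degrees of freedom), two-sided, with Benjamini-Hochberg adjustment over all probe sets. The procedure was tested on simulated data. Every probe set of the 7 genes was described, and up to 3 called genes per list and comparison were named. For each listed gene the brightest probe set was used. Members and lists were chosen with earlier results of these data known. Alternatives were quantile normalization, median centring, an offset of 32, a floor of 16, own arrays only, the dimmest 40% left out, an eBayes trend, a replicate block, each array left out (the lone array assumed to vary like the other groups) and folds of 1.5 and 4. Figures used matplotlib 3.10.9 in Python 3.11.15.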

Additional observations from a re-analysis of the deposited data

How the results depend on the processing

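Leaving out the dimmest 40% of probe sets removed GATA2, TBX2, TBX3 and Gga.13867.1.S1_at from the tests. Counts of the 9 under that alternative thus rest on the remaining probe sets. The difference of effects has no fit of its own arrays. The deposited intensities carry no detection calls, so values far under an array median cannot be ranked, and 2 pools per group leave wide intervals. Over the probe sets and comparisons examined, 797 alternative values kept direction and side of the call limits, 22 gained the call, 70 lost it and 19 changed sign. The number of the 9 probe sets called higher with FGF2 was 1 in place of 0 with an offset of 32, own arrays, the dimmest 40% left out or the trend, and 0 to 1 with an array left out. For untreated trigeminal minus lateral, the number called lower was 0 in place of 1 with an offset of 32, a floor of 16 or the dimmest 40% left out, and 0 to 1 with an array left out, and the number called higher was 0 to 2. With an array left out, the number higher in the difference of effects was 1 to 4 in place of 3, and 4 to 5 in place of 4 for otic minus lateral. FGF2-treated trigeminal minus otic gave 2 to 4 lower in place of 3, and 1 at a fold above 4.

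Signs changed mostly with an array left out. For Gga.13867.1.S1_at the difference of effects (−0.47) was 0.87 with an offset of 32, 1.62 with a floor of 16, and −1.75 to 0.82 with an array left out (positive without otic replicate 1, 0.37, lateral replicate 2, 0.51, or FGF2 replicate 1, 0.82). For the SALL4 probe set Gga.18661.1.S1_at it (0.24) ranged from −0.62 to 1.11, negative without otic replicate 1, lateral replicate 1 (−0.41) or untreated replicate 1 (−0.072). With FGF2, TBX3 (0.68) was 0 with a floor of 16 and ranged from −0.14, without FGF2 replicate 2, to 1.5, and GATA3 (−0.25) from −0.55 to 0.059, without FGF2 replicate 1. For otic minus lateral, TBX1 (0.29) ranged from −0.88 to 1.45 and was −0.66 without lateral replicate 1. For untreated trigeminal minus lateral, SALL1 ranged from −0.46 to 1.08 and from −0.043 to 1.70 and TBX1 from −0.76 to 1.14, all lowest without lateral replicate 1. TBX1 was −0.17 without untreated replicate 2, and the _s_at probe set of SALL4 ranged from −0.42 to 0.12, the latter without lateral replicate 2. For FGF2-treated trigeminal minus otic, TBX3 (−0.79) ranged from −1.61 to 0.028, without FGF2 replicate 1. The cause was not tested.

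Over all probe sets, samples with the same replicate number did not deviate together (correlations of −0.02 to 0.03). A value over all probe sets cannot exclude a pairing of pools that moved only some of them. With the replicate block the _s_at probe set of SALL4 lost its call in the difference of effects (1.49), Gga.13867.1.S1_at lost its own in untreated trigeminal minus lateral (−2.85), and among counts of the 9 only that of probe sets higher in the difference of effects changed, to 2 in place of 3. Over all probe sets the block gave 2050 higher and 1060 lower in otic minus lateral in place of 1941 and 1048. An offset of 32 left 516 and 322 there, and for FGF2 184 and 65 in place of 1054 and 868, of which 73.9% were higher in place of 54.8%.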
